A study of Arabidopsis thaliana and Zea mays subsp. mays with 14 samples.

Results

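Regions of open chromatin that were called in every seedling library of Arabidopsis thaliana and in no root library numbered 520 of 29359 (1.77%). To find them, the called regions of 10 libraries were joined wherever they touched or overlapped, which gave 29359 merged regions. A merged region was taken when at least 1 of its bases lay in a called region in each of the 8 seedling libraries and none did in either root library. The members were thus chosen by their called bases in the seedling and root libraries, and their absence from roots is a description that carries no test.

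The assay was ATAC-seq, which marks accessible DNA by where the transposase Tn5 can cut it and add adapters, applied to nuclei from plants of the accession Col-0 aged 7 days. There were 5 groups of 2 libraries. The stated hours of light and growth time, which could run past 7 days, were the same in all groups. Responses to light were thus not compared. Wild-type whole seedlings gave 50000 sorted nuclei, 500 sorted nuclei, or 50000 nuclei labelled crude, and wild-type roots gave 50000 sorted nuclei. The last group held 50000 nuclei of whole seedlings with the 35S:H2AX-GFP transgene, which makes a histone H2AX fused to green fluorescent protein from the 35S promoter, a viral promoter active in most plant cells. The protocol text is the same for all groups and names sorting for each, so the way the crude nuclei were purified stays unstated in the sources used here. Whole seedlings include their roots, so the seedling lists mix shoot and root nuclei, and a smaller share of cells with an open region cannot be told apart from weaker opening in all cells.

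Open chromatin in plants lies mostly at promoters, at enhancer-like sites and over strongly transcribed genes, where nucleosomes are displaced and transcription factors can bind. Shoots differ from roots in having photosynthetic cells, which make Rubisco, the enzyme that fixes carbon dioxide, and the antenna proteins that gather light. They also have a waxy cuticle, stomata for gas exchange, and a meristem that makes leaves. Light acts on these cells through photoreceptors, through the transcription factors HY5 and the PIFs, and through growth hormones such as auxin and brassinosteroid.

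The lists differed in length and in covered sequence, and without read counts in them the depth of a region is unknown. A library listed between 22138 and 29309 regions over 13.78 to 24.61 Mb. Crude replicate 1 covered 13.78 Mb against 19.26 Mb in crude replicate 2, and root replicate 2 covered 15.76 Mb against 21.56 Mb in root replicate 1. As a check of the tissue labels, a region lay over or within 1000 bp of 47 of 47 genes for antenna and photosystem subunits in each seedling library, of 42 in root replicate 1 and of 35 in root replicate 2. Genes of the cuticle and wax list had one in 19 to 30 of 30 cases in seedling libraries and in 19 and 16 in roots. Genes of root nutrient uptake had one in 20 to 30 of 34 cases in seedling libraries and in 28 and 26 in roots. For root cell identity the counts were 21 to 32 of 37 in seedling libraries and 27 and 25 in roots. For suberin they were 8 to 12 of 16 in seedling libraries and 13 and 10 in roots. Among these root lists, only the suberin count of root replicate 1 lay above its seedling range. Over all protein-coding genes the share was 71.0% to 86.9% in seedling libraries and 79.5% and 73.4% in roots. In roots that was close to the 82.4% and 76.5% of the nutrient uptake genes, and root identity genes had 73.0% and 67.6%. Root lists therefore still held regions beside most photosynthesis genes, and seedling lists beside 50% or more of each root list. Housekeeping genes had a region in 20 of 20 cases in each of the 10 libraries.

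Few of the regions shared by all seedling libraries were missing from roots. Of 13608 regions called in all 8 seedling libraries, 91.1% were also called in both root libraries and 3.82% in neither. A further 628 were called in root replicate 1 and not in root replicate 2, and 66 in root replicate 2 and not in root replicate 1. The regions that 1 root library kept out of the set had a median of 343.5 covered root bases, from 13 to 2279, and 34 of them had 100 or fewer. On the seedling side, 390 regions without a root base missed a single seedling library, which was replicate 2 of the 500 nuclei for 148 of them and crude replicate 1 for 145. Inside the rule, the lowest seedling library of a member had a median of 290 covered bases, and 25 members had under 100 in at least 1 seedling library.

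Listed genes stood on both sides of that edge. Of the 694 regions held out by 1 root library, 42 lay next to a listed gene, 41 of them held out by root replicate 1, as were 628 of the 694. The lists are described with the genes below. At BDG1, needed for a closed cuticle, a region of 3280 bp had 2357 to 3205 bases in seedling libraries, 261 in root replicate 1 and none in root replicate 2. The region over the antenna genes LHB1B1 and LHB1B2 had 2354 to 4367 bases in seedlings and 227 in root replicate 1. LHCB2.2, also an antenna gene, had 2358 to 3661 bases in seedlings and 302 in root replicate 2 alone. At EXPA1, which loosens cell walls, 38 bases in root replicate 1 faced 1338 to 3057 in seedlings. Others had root coverage like that of seedlings, such as KCS1, a fatty acid elongase, with 1140 bases in root replicate 1 and 200 to 878 in seedlings, and the root gene ESB1, with 942 against 264 to 1033. ACT7, an actin gene of the housekeeping list, had 1555 against 615 to 1733. These regions were chosen for mention after their values were seen.

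The members were of middling size and were spread over the genome. Their median width was 1116 bp, with quartiles of 760.75 and 1626 bp, against 1388 bp for the regions called in all 10 libraries and 793 bp over all merged regions. Together they spanned 0.703 Mb, and 29 were 3000 bp or wider. All 5 nuclear chromosomes held some, from 1.52% of the merged regions on chromosome 2 (73 members) to 1.88% on chromosome 5 (129 members). Most stood alone: 439 had no other member as the next merged region, and 81 lay in runs of 2 or 3. The nearest root region was a median of 1725.5 bp away, within 1000 bp for 149 members and beyond 5000 bp for 48.

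By the position of their midpoints, 40.4% of members lay outside protein-coding genes, at most 1000 bp from a gene end (210 of 520, 95% Wilson interval 36.3% to 44.7%). A further 37.3% lay inside a protein-coding gene (194, 33.3% to 41.5%), 3 in a pseudogene, and 21.7% elsewhere (113, 18.4% to 25.5%). Over all merged regions 42.6% lay near a gene end and 41.4% inside a gene, both within the members' intervals, and over regions called in all 10 libraries 47.7% and 41.4%. Over all merged regions 15.2% lay elsewhere, and over regions called in all 10 libraries 10.4%, both under the members' interval. The 160 regions of the opposite kind, called in both root libraries and in no seedling library, had 24.4% elsewhere (18.4% to 31.6%), an interval that overlaps that of the members. These intervals cover counting error over regions only, and neighbouring regions are not independent.

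**Figure D1:**
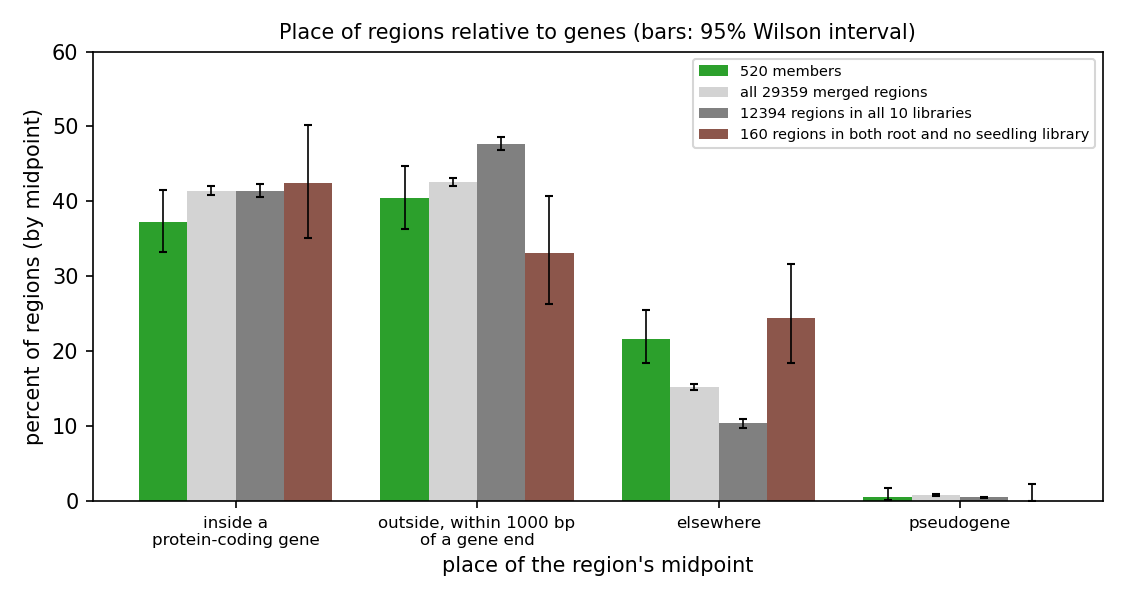
Percent of regions (vertical axis) by the place of their midpoint relative to genes (horizontal axis) for the 520 members, all merged regions, regions in all 10 libraries and regions in both root but no seedling libraries; bars are percentages and lines are 95% Wilson intervals. The share of members with their midpoint elsewhere, neither inside a gene or pseudogene nor near a gene end, is 21.7%. It lies above those of all merged regions (15.2%) and of regions in all 10 libraries (10.4%). Only the midpoint is classed, so a region counted as elsewhere can still overlap a gene, as the PRE5 member does.

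In the seedling libraries the members had middling scores. Each deposited region carries a score of the authors with no definition in the sources used here, so it was used only to rank regions within 1 library, with the best-scoring region inside a merged region standing for it and 100 as the top rank. Regions called in all 10 libraries had median ranks of 67.2 to 76.3. The members' median rank was lowest in replicate 2 of the 500 nuclei, at 37.5, and highest in H2AX-GFP replicate 1, at 59.4. In each of the 8 seedling libraries the members' median lay under that of the regions called everywhere. Those regions were chosen for calls in all 10 libraries and were wider, with a median of 1388 against 1116 bp. Their best score was thus taken over more sequence, and what selection and width add to the difference was not tested. Of the 520, 290 had a median rank below 50 over the 8 libraries and 8 had one above 90. The Rubisco region described next was the 1 member above rank 90 in all 8.

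**Figure D2:**
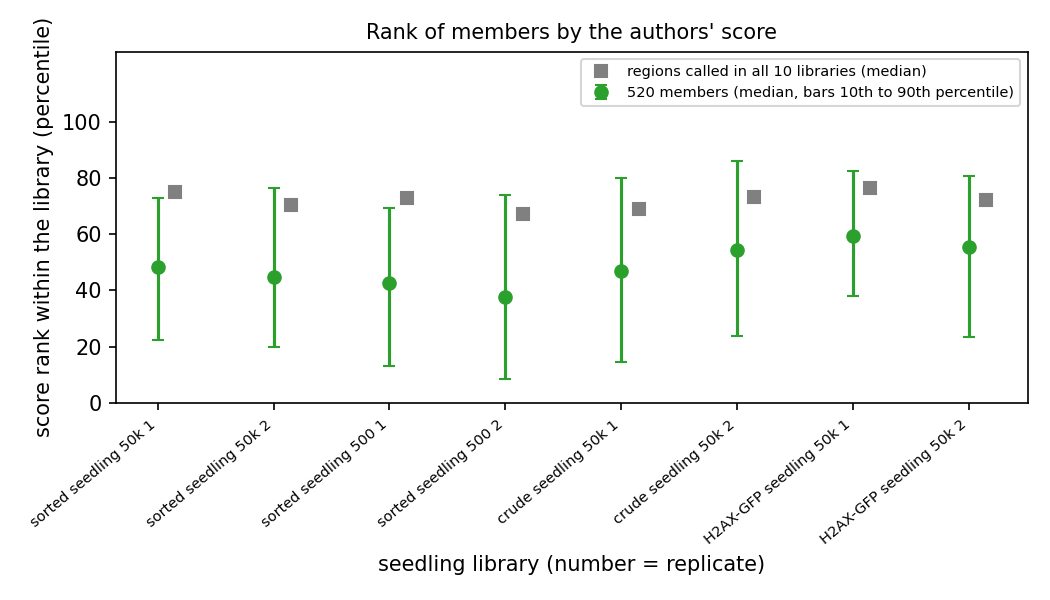
Rank of the members by the authors' score within each seedling library (vertical axis, percentile from 0 to 100; horizontal axis, libraries); green circles are medians over 520 members with bars from the 10th to the 90th percentile, and grey squares are medians of the regions called in all 10 libraries. The members' medians run from 37.5 to 59.4 and sit under the grey squares in each library. The regions of the grey squares were chosen for calls in all 10 libraries and have a larger median width.

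Genes near the members were counted where the gene lay over a member or within 1000 bp of it. Of the 520, 449 had such a protein-coding gene and 71 had none, and 373 overlapped a gene. In all, 683 of 27444 protein-coding genes, 2.49%, were next to a member, and 304 of them carry a symbol. Absence of the member did not leave all these genes without root signal. Within 1000 bp of the gene, 291 of the 683 (42.6%) had no covered base in either root library, 66 had some in 1, and 326 (47.7%) had some in both. Of 17615 genes with covered bases in all 8 seedling libraries, 343 (1.95%) had none in either root library, and since the rule asks for a region without root bases, it partly sets the members' share.

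The 14 gene lists held 433 genes, and they were chosen with earlier results of these data known, so they give no independent evidence. In all, 46 of the 433 listed genes, 10.62%, were next to 44 members, against 2.49% of all protein-coding genes. Of the 46, 23 had no root base within 1000 bp of the gene, 19 had some in both root libraries and 4 in 1. Shares were 33.3% for Rubisco and carbon fixation (7 of 21 genes), 19.0% for chloroplast development and pigments (4 of 21) and 16.7% each for the cuticle and for the shoot epidermis with stomata (5 of 30 each). They were 14.9% for light signalling (7 of 47), 12.9% for brassinosteroid and cell growth (4 of 31), 11.8% for the shoot meristem and leaf (4 of 34) and 9.1% for auxin response (4 of 44). Neighbouring genes can share a member. The 7 Rubisco and carbon fixation genes lay at 6 members, with 3 of the genes at 1 member, and the 4 auxin genes lay at 2. Antenna and photosystem subunits gave 6.4% (3 of 47). They gave 11 genes without root replicate 1, 11 when 50% of a region had to be covered to count as called, and 14 with the better-scoring 50% of each list. With the 50% coverage rule the cuticle and the epidermis lists each had 1 of 30 in place of 5. The root lists gave 2.9% for nutrient uptake (1 of 34), 5.4% for root cell identity (2 of 37) and 0 of 16 for suberin. Without H2AX-GFP replicate 2 nutrient uptake gave 0 of 34. The clock and housekeeping lists gave 0 of 21 and 0 of 20. At the 2.49% of all genes, lists as short as these and the suberin list would often hold no gene.

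**Figure D3:**
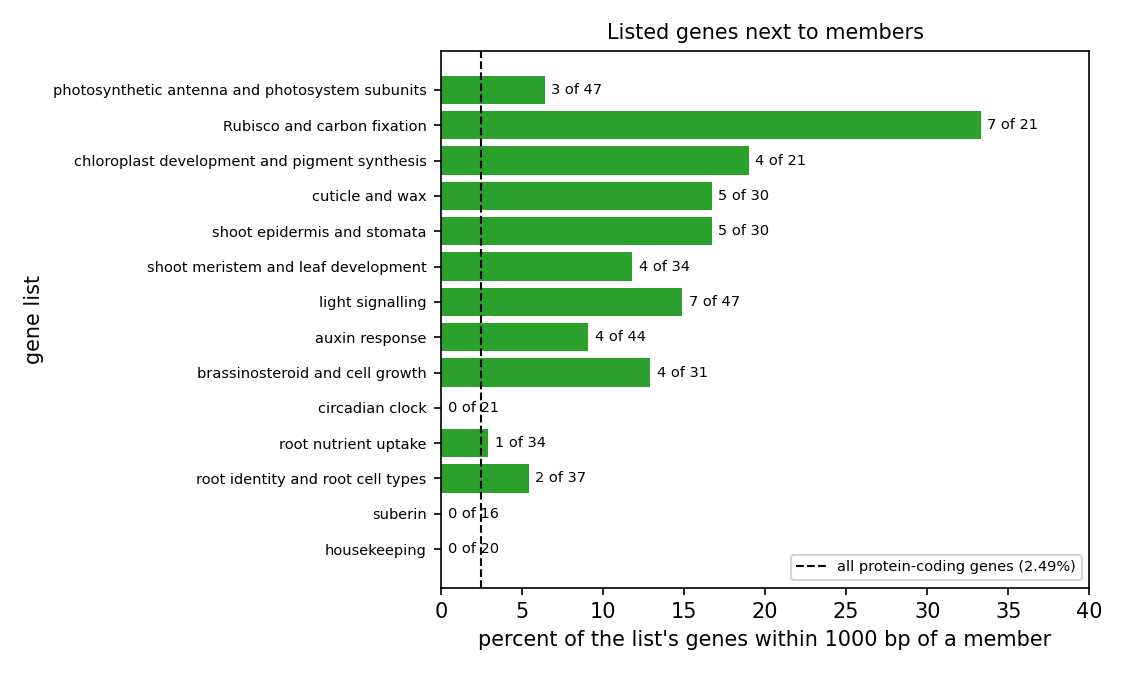
Percent of the protein-coding genes of each list that lie over or within 1000 bp of a member (horizontal axis) for the 14 gene lists (vertical axis), with counts beside the bars; the dashed line is the share over all protein-coding genes. Under the rule as used the share is highest for Rubisco and carbon fixation, 7 of 21 genes. The clock, suberin and housekeeping lists have none, which lists so short would often have at the 2.49% over all genes. Genes are counted, so neighbouring genes can share a member. With the better-scoring 50% of regions Rubisco and carbon fixation has 6 of 21, antenna and photosystem subunits 14 of 47 and the clock 1 of 21.

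The widest member carried Rubisco genes. At chr5:15376136-15385749 (TAIR10), 9614 bp, it spans RBCS3B (AT5G38410), RBCS2B (AT5G38420) and RBCS1B (AT5G38430), neighbouring copies of the gene for the small subunit of Rubisco. Reads from such near-identical copies may be placed on the wrong copy, and the sources used here do not state how they were assigned. Called regions covered 6753 and 9227 bases of it in the 2 libraries of 50000 sorted nuclei, 5543 and 7827 with 500 nuclei, 6898 and 6421 with crude nuclei, and 9227 and 9576 with H2AX-GFP nuclei. Both H2AX-GFP libraries and sorted replicate 2 were high, and the first library of 500 nuclei was lowest, yet that still covered more than any other member did in its lowest library. Its rank was 96.0 to 98.9, and the nearest root region lay 5220 bp away.

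Other carbon fixation genes had smaller members. CA2 (AT5G14740), a carbonic anhydrase, which interconverts carbon dioxide and bicarbonate, lay under 2 members. The first, chr5:4756924-4760150, had 1310 and 2880 bases with 50000 sorted nuclei, 1019 and 1493 with 500, 2089 and 1921 with crude and 2756 and 3185 with H2AX-GFP nuclei. The second, chr5:4760511-4763230, also lies 141 bp from WER (MYB66), a transcription factor that sets epidermal cell fate in the root, and had 356 to 2378 bases. Replicate 1 of the 500 nuclei was lowest at the first and replicate 2 at the second. CA2 had no root base within 1000 bp, and neither had WER.

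The rest of this list is given in full, although the rule for named genes does not reach it. CA1 (AT3G01500), another carbonic anhydrase, had a member at chr3:197752-198792 with 232 to 1041 bases, the highest in crude replicate 1. GAPA-2 (AT1G12900), a subunit of the chloroplast glyceraldehyde-3-phosphate dehydrogenase, had 363 to 1244 bases at chr1:4393696-4394939, again highest in crude replicate 1. At GOX1 (AT3G14420), a glycolate oxidase of photorespiration, the member chr3:4820366-4822317 had 558 to 1672 bases. Crude replicate 1 was the highest library at all 3. CA1 also had root bases elsewhere near the gene, 1342 and 691, and GOX1 had 396 and 315, whereas GAPA-2 had none.

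Of the light-harvesting apparatus, 3 genes had a member. LHCB3 (AT5G54270), a trimer subunit of the main antenna of photosystem II, lay under chr5:22037311-22040099 between MRE11 and ATM2. It had 1426 and 2789 bases with 50000 sorted nuclei, 586 and 2242 with 500, 2492 and 963 with crude and 2132 and 2348 with H2AX-GFP nuclei. Replicates of all but the H2AX-GFP group thus differed by more than the group means did, and the groups overlapped. PSAD-2 (AT1G03130), which helps dock ferredoxin at photosystem I, had 514 to 1959 bases at chr1:752786-754923, with crude replicate 1 highest. PSAN (AT5G64040), the photosystem I subunit on the lumen side, had 492 to 1086 at chr5:25629069-25630262, with H2AX-GFP replicate 1 highest. No root base lay within 1000 bp of these 3 genes. Their median ranks, 78.3 to 79.2, were above the 48.1 over all members.

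Chloroplast development and pigments gave 4 genes. GLK1 (AT2G20570) and GLK2 (AT5G44190) are related transcription factors that switch on photosynthesis genes. The GLK1 member, chr2:8855165-8855574, is short at 410 bp and lies inside the gene, with 98 bases in crude replicate 1, a median of 325.5 and 410 in H2AX-GFP replicate 2. Crude replicate 1 stood far under the next library there, which had 263. Near the gene as a whole, GLK1 had 1560 to 2815 covered bases in seedling libraries and 3 and 50 in roots. The GLK2 member, chr5:17799320-17802033, which also overlaps CBP20, had 921 to 2477 bases, and the gene had 619 and 346 in roots outside it. PORB (AT4G27440), which makes chlorophyllide in the light, had 327 to 812 bases at chr4:13724930-13725773 and none in roots. SIG1 (AT1G64860), a sigma factor of the chloroplast polymerase, had 137 to 826 bases in its member and 1479 and 1522 root bases elsewhere near the gene.

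Crude replicate 1 covered the 13 members of these 3 lists more widely than it covered members in general. Their median covered bases there were 1430, against 481.5 over all members, and their median rank was 77.4 against 46.9. That library was the highest at 4 of the 13 and at 37 of the 520, and each H2AX-GFP library was also highest at 4 of the 13. The 13 were wider than members in general, with a median of 1952 against 1116 bp, and in H2AX-GFP replicate 1 their median was 1411 bases against 871. Ranks in the other libraries ran from 42.7 in replicate 1 of the 500 nuclei to 79.6 in H2AX-GFP replicate 1. In crude replicate 2 the median rank was 72.5 against 54.4 over all members. Of the 13 midpoints 12 lay inside a gene. The source of this difference was not tested.

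**Figure D4:**
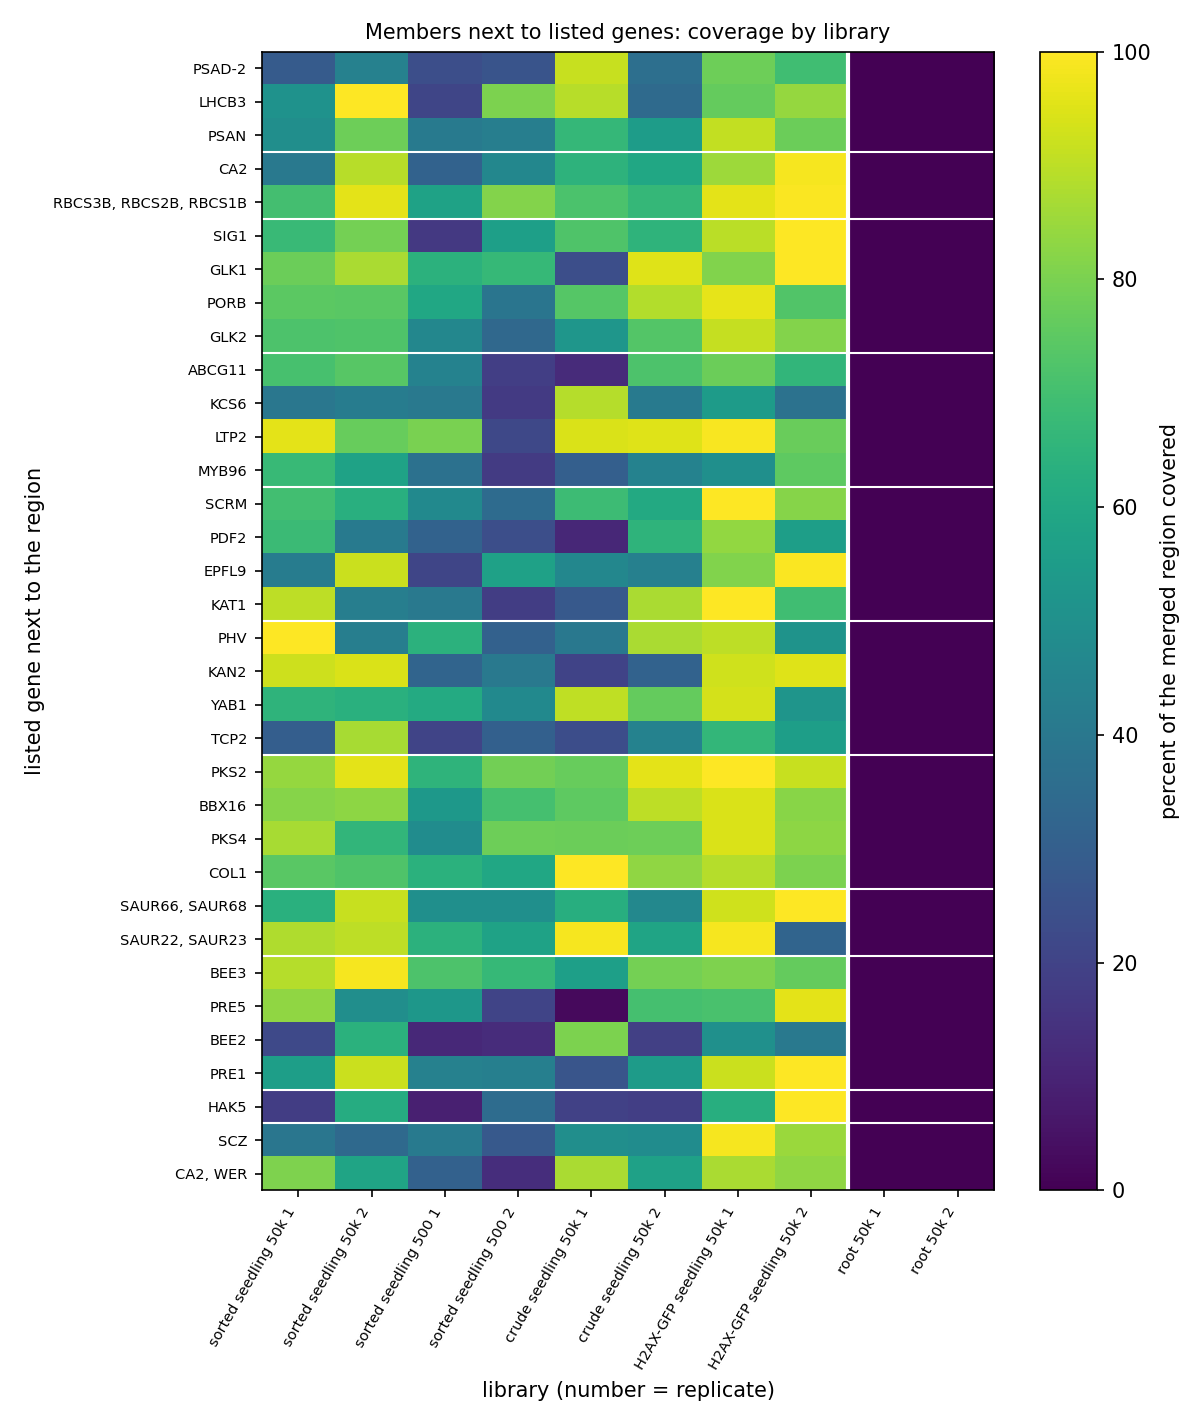
Percent of each merged region covered by called regions (colour, 0 to 100) in the 10 libraries (horizontal axis) for members next to listed genes (vertical axis), up to 4 genes a list by score rank; white lines part the lists, and a white line parts seedling from root libraries. Root columns are at 0 by the rule. Among seedling libraries, coverage is mostly highest in the H2AX-GFP columns and lowest in the 500-nuclei columns, with crude replicate 1 high at PSAD-2 and KCS6 and low at GLK1, PDF2 and PRE5.

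The cuticle seals the shoot surface, and 5 of its genes had members. KCS6 (AT1G68530), an elongase for wax precursors, had 297 to 1549 bases at chr1:25713697-25715442, with a median of 714. Crude replicate 1 was highest and replicate 2 of the 500 nuclei lowest. ABCG11 (AT1G17840), which exports cuticular lipids, had 160 to 1001 bases in its member, with crude replicate 1 this time the lowest. LTP2 (AT2G38530), a lipid transfer protein, had 219 to 999 and a median of 879, and the transcription factor MYB96 (AT5G62470), which switches on wax genes, had 301 to 1316. CER2 (AT4G24510), needed to make the longest wax precursors, had 300 to 669. In root libraries MYB96 had 483 and 413 bases near the gene, and the other 4 had none.

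Epidermis and stomata contributed PDF2, EPFL9, SCRM, KAT1 and ERL2. PDF2 (AT4G04890), a homeodomain factor of the shoot epidermis, had 1539 and 930 bases with 50000 sorted nuclei, 705 and 544 with 500, 254 and 1468 with crude and 1890 and 1261 with H2AX-GFP nuclei at chr4:2481179-2483431. Crude replicate 1 was the lowest of the 8 and crude replicate 2 among the 3 highest. EPFL9 (STOMAGEN, AT4G12970), a peptide signal that raises the number of stomata, had 512 to 2417 bases and no root base near the gene. SCRM (ICE1, AT3G26744), a partner of the stomatal lineage factors, had 276 to 787, and KAT1 (AT5G46240), a potassium channel of guard cells, 172 to 956. ERL2 (AT5G07180), a receptor kinase of stomatal patterning, had 180 to 545 at a member 904 bp from the gene. The genes of SCRM, KAT1 and ERL2 each had bases in both root libraries outside the member, and PDF2 had some in 1 root library.

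Leaf development gave 4 genes with modest members. PHV (AT1G30490) is a factor of the upper leaf side, KAN2 (AT1G32240) and YAB1 (AT2G45190) of the lower side, and TCP2 (AT4G18390) limits cell division in leaves. Their members had 324 to 1041, 291 to 1381, 217 to 427 and 229 to 976 bases over the seedling libraries. At KAN2 the libraries of 50000 sorted nuclei had 1336 and 1367 bases and those of crude nuclei 291 and 457, which do not overlap. The difference, -977.5 bases (SE 146.7), had the smallest adjusted p of any member in that contrast, 0.501 in limma, and was not called. None of the 4 genes was without root bases, and the root bases of PHV, 470 and 0, came from root replicate 1 alone.

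Light signalling gave 7 genes at 9 members. COL1 (AT5G15850), a relative of the flowering regulator CONSTANS, had 2 members. At chr5:5177070-5178919 it had 1105 to 1844 bases with a rank of 87.1, and at chr5:5175457-5176799 214 to 1343. PKS4 (AT5G04190), a phytochrome kinase substrate that acts in phototropism, also had 2, with 1000 to 1946 bases at chr5:1151437-1153495 and 525 to 1548 at chr5:1149615-1151189. No root base lay near COL1 or PKS4. PKS2 (AT1G14280) had 814 to 1250 bases and BBX16 (AT1G73870), a B-box factor, 1028 to 1821, and both genes had bases in both root libraries outside the member.

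Transcription factors of light responses also stood next to members, and all had root regions near the gene as well. HY5 (AT5G11260), which promotes seedling development in light, was 948 bp from a member with 277 to 513 bases. Within 1000 bp of the gene, root libraries had 1069 and 752 bases. PIF1 (AT2G20180) and PIF4 (AT2G43010) restrain greening and drive elongation. Their members had 167 to 2017 and 108 to 1460 bases, and the genes had 1352 and 1197 and 1885 and 581 root bases. These 3 are outside the rule for named genes and are given to complete the list.

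Hormone response and growth genes were next to 6 members. SAUR66 (AT1G29500) and SAUR68 (AT1G29510), small genes that auxin switches on, shared chr1:10320608-10323707, where called regions covered 1967 and 2837 bases with 50000 sorted nuclei, 1541 and 1544 with 500, 1948 and 1442 with crude and 2872 and 3098 with H2AX-GFP nuclei. The H2AX-GFP libraries were highest, and its rank of 94.5 was among the 8 above 90. SAUR22 (AT5G18050) and SAUR23 (AT5G18060) shared chr5:5974945-5976060, with 359 to 1102 bases. SAUR genes are near-identical within a cluster, so reads may be shared between copies. None of these 4 had a root base within 1000 bp.

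Of the brassinosteroid and growth list, BEE2, BEE3, PRE1 and PRE5 had members, all of them helix-loop-helix factors that promote elongation. PRE1 (AT5G39860) had 490 to 1851 bases at chr5:15956129-15957979, and its neighbour at chr5:15953997-15955811, 1556 bp from the gene, had 755 to 1815. Crude replicate 1 was lowest at both. PRE5 (AT3G28857) lay in a member of 4234 bp with 103 bases in crude replicate 1 and 4065 in H2AX-GFP replicate 2. BEE3 (AT1G73830) had 402 to 703 bases. At BEE2 (AT4G36540), with 170 to 1193, crude replicate 1 was highest. PRE1 and PRE5 had no root base near the gene, BEE3 had 234 in root replicate 1, and BEE2 had 1055 and 906.

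Genes known from roots had members as well. HAK5 (AT4G13420), a high-affinity potassium transporter of the root, shared a member of 4409 bp with ATCSLA15 that had 385 to 4409 bases. H2AX-GFP replicate 2 alone covered it in full, and without that library HAK5 was not next to a member. Near HAK5 itself the root libraries had 2163 and 1393 bases outside that member. SCZ (HSFB4, AT1G46264), which controls cell divisions in the root stem cell niche, had a member with 199 to 699 bases, both H2AX-GFP libraries above the other 6, and 288 and 0 root bases near the gene.

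**Figure D5:**
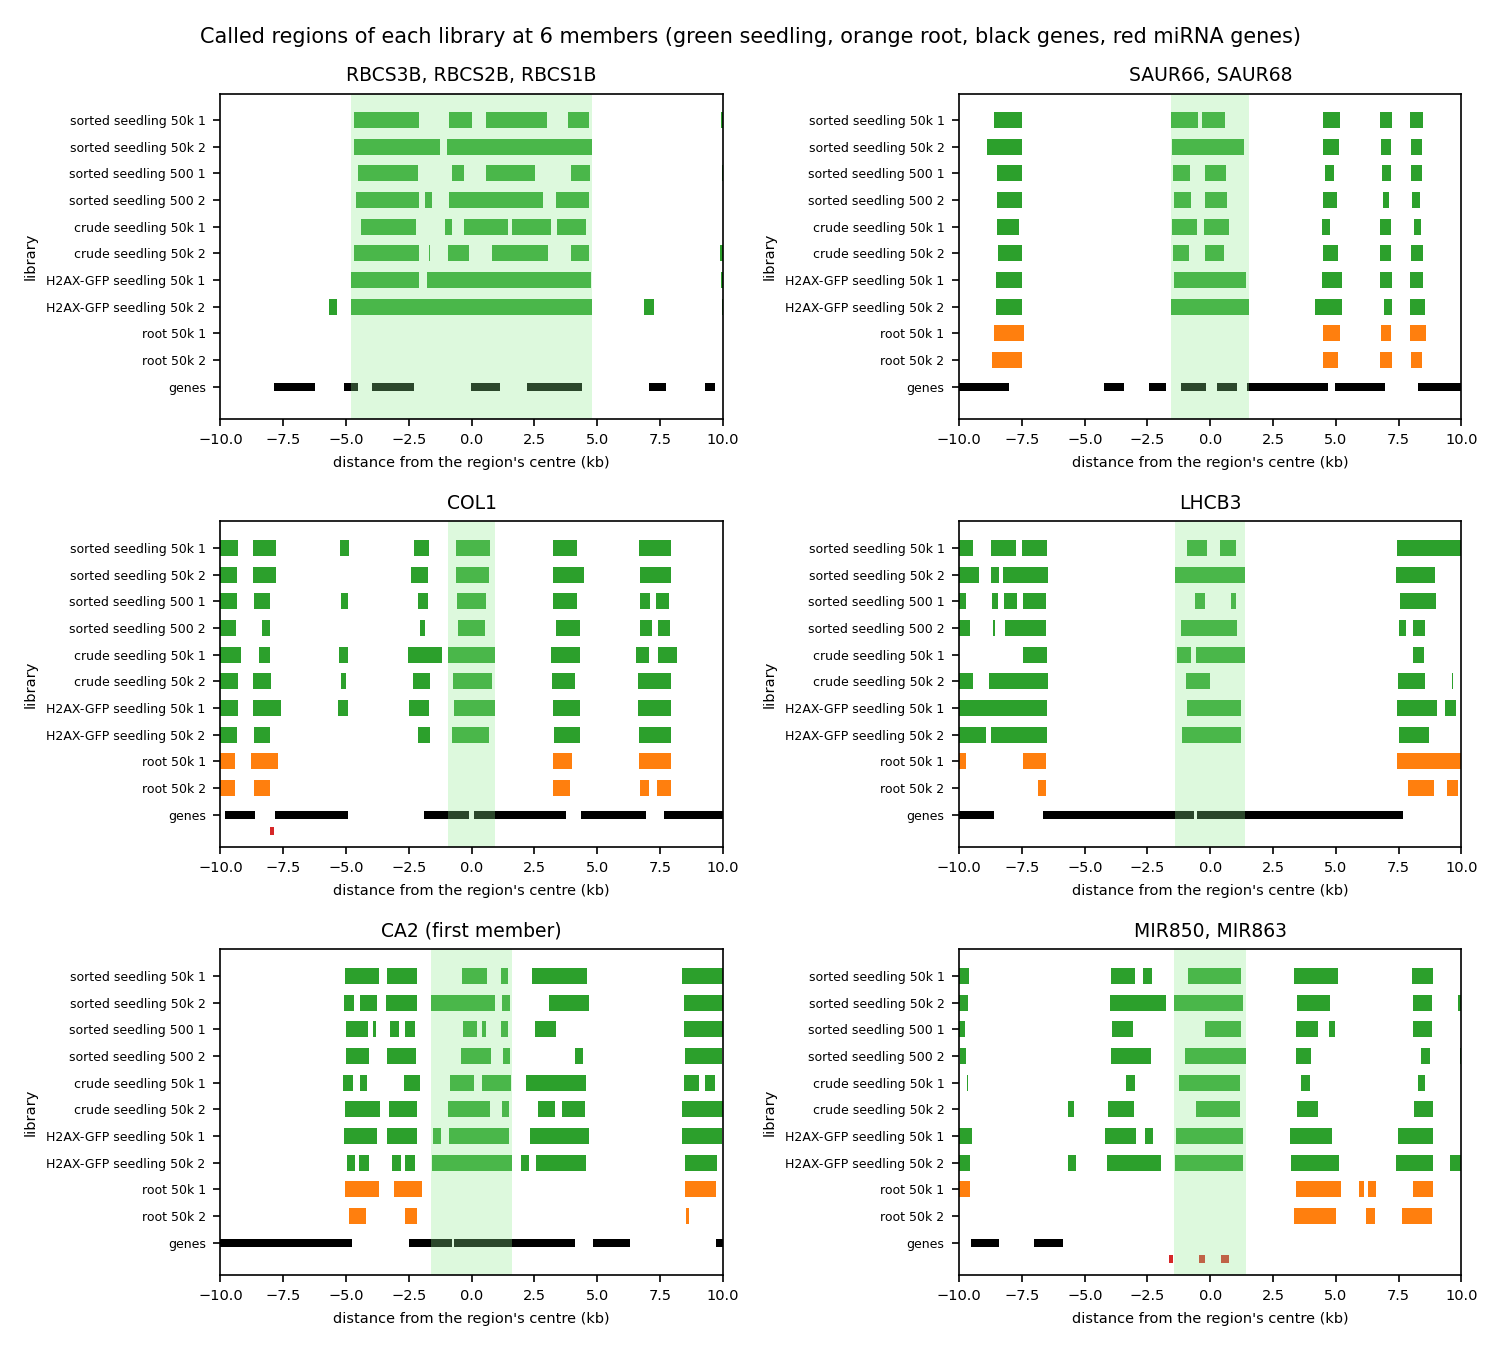
Called regions of each library (rows; green seedling, orange root) around 6 members, drawn by distance from the member's centre in kb (horizontal axis), with the member shaded, protein-coding genes in black and miRNA genes in red. Within the shading all 8 seedling rows hold a bar and both root rows none, while the nearest root region is 374 bp from the edge of the first CA2 member and 5220 bp from that of the Rubisco member, just outside the drawn window.

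Beyond the lists, the highest-ranked and widest members lay at genes of other kinds. The top rank, 98.3, belonged to chr3:10493547-10495220, which has no protein-coding gene within 1000 bp and lies beside the pseudogenes AT3G28157 and AT3G28160. It had 644 to 1674 bases. After it and the Rubisco and SAUR66 members came a member between SVL2 and SNC4, a receptor-like kinase, with 1290 to 2585 bases at chr1:24995114-24997902. Next were members at AT2G29260 to AT2G29300 (rank 91.3), at AT3G42570 (rank 91.2, with no root region within 31275 bp), at AT3G22235 (rank 90.9) and at RLP19, a receptor-like protein (rank 90.1). At RLP19 every seedling library covered 2064 to 2952 bases, so its libraries lay close together.

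Among the widest members, libraries differed more. LOL1 and FdC2, a zinc finger gene and a ferredoxin-like gene, lay under 6057 bp, where 50000 sorted nuclei gave 4054 and 5019 bases, 500 nuclei 2838 and 2795, crude nuclei 1668 and 2707 and H2AX-GFP nuclei 5018 and 5837. Neither crude library nor either 500-nuclei library reached the others. A member of 5722 bp at MCM9 and AT2G14060 had 296 to 1534 bases in 7 libraries and 5722 in H2AX-GFP replicate 2, so its width comes from that library. The others were at AT1G58602 (5442 bp, 1604 to 4504 bases), AT3G44970 (4539 bp, 1280 to 4286) and KCS8, an elongase of very long fatty acids (4298 bp, 1100 to 4285).

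MicroRNA genes were among the other annotated features near members. Of 326 miRNA genes, 10 (3.07%) lay within 1000 bp of a member, close to the 2.49% of protein-coding genes. The member with most covered bases among the 71 without a protein-coding gene, chr4:7844729-7847584, covers MIR850 and MIR863 and lies 40 bp from MIR5026, with 1411 to 2735 bases. MIR156c (chr4:15415537-15416261, 360 to 681 bases) and MIR157c belong to the family that holds plants in the juvenile phase, and MIR157c lay within 1000 bp of 2 members with 861 to 1315 and 204 to 981 bases. MIR167a, which limits auxin response factors, had 522 to 1040. Of the genes for SPL factors that this family represses, SPL10 (chr1:9507015-9508722, 865 to 1602 bases, rank 89.1) and SPL11 (chr1:9501177-9502341, 526 to 1052) lay under members too. Apart from the first, these were chosen for mention after their values were seen. SPL genes were not among the lists, and their share next to members was not counted.

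The 71 members without a protein-coding gene ran from 374 to 3061 bp, and those with the most covered bases are given here. The region chr5:7464145-7467205 had 2614 and 3061 bases with 50000 sorted nuclei, 1825 and 2091 with 500, 667 and 1999 with crude and 2326 and 2978 with H2AX-GFP nuclei, and its nearest gene, AT5G22490, was 3051 bp away. Crude replicate 1 was lowest by a wide margin. The region chr3:20686760-20688841 had 668 to 2074 bases, again lowest in crude replicate 1, and lay 2696 bp from MYB109. Of the 71 members without a protein-coding gene, 31 had another annotated feature within 1000 bp, 18 of them a long noncoding RNA. Over all 520, long noncoding RNAs were near 72 and tRNA genes near 3. FT, the mobile signal for flowering, had a member 981 bp away at chr1:24334981-24335680 with 235 to 623 bases, mentioned after its values were seen.

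The covered length of members differed between preparations. The median over members was 688.25 bases with 50000 sorted nuclei (SD 1.061, n = 2), 421 with 500 nuclei (SD 60.811, n = 2), 581.75 with crude nuclei (SD 141.775, n = 2) and 830 with H2AX-GFP nuclei (SD 57.983, n = 2). The groups of 500 and of H2AX-GFP nuclei lay on either side of the others, while crude replicate 1 (481.5) and replicate 2 (682) spanned most of the gap. The libraries' total covered length moved the same way, at 21.705, 14.82, 16.52 and 24.28 Mb, and values divided by that length are given with the tests.

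The rule asks for at least 1 covered base in each seedling library, so it removes regions that a preparation lacks. It left out 390 regions without a root base that missed a single seedling library. The members' differences between preparations are limited by this. With that limit, differences were tested with limma over 24442 regions of the 8 seedling libraries. None passed an adjusted p (Benjamini-Hochberg) of 0.05 in any of the 3 contrasts against 50000 sorted nuclei, a background of 0%. A region cannot differ by more than its width, which had a median of 1116 bp in members. On simulated data 4 of 100 differences of 800 bases were recovered. Calls among members were therefore unlikely, and their lack does not show that the preparations were alike. At an unadjusted p under 0.05, limma gave 37 of 520 members for 500 nuclei, against 6.67% of all regions (1631). It gave 29 of 520 for crude nuclei, against 8.17% (1997), and 28 of 520 for H2AX-GFP nuclei, against 3.98% (973). The members' share was under that of all regions for crude nuclei and above it for 500 and H2AX-GFP nuclei. Whether the libraries of 1 group came from separate plants is not in the labels, so these p-values measure the spread between libraries, which may be technical.

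Without calls, the differences are given as values. With 500 nuclei 497 members had fewer bases and 23 more, with a median difference of -224.7 bases, against -251.5 over all regions called in the 8 libraries. With crude nuclei 345 had fewer and 175 more (median -87.5, against -172.5), and with H2AX-GFP nuclei 136 had fewer and 384 more (median 100.3, against 21). After division by covered length, rescaled to bases, the members' medians were -2.2, 91.1 and 15.1, against 56.7, 73.4 and -64.2 over all regions called in the 8 libraries. For crude nuclei 341 members then had more and the direction turned, as it did over all those regions. Without crude replicate 1 the crude median was 6.8. Without H2AX-GFP replicate 1, limma called 7 members higher in that line, against 1.63% of all regions called in either direction (398, 395 higher and 3 lower), with the remaining library assumed to vary like the other groups. The 3 contrasts share the sorted libraries and are not independent.

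Members differed in how evenly the seedling libraries covered them. In 78 the highest library had under 2 times the bases of the lowest, and in 115 it had over 5 times. Every seedling library covered at least 50% of the merged region in 59 members, and at least 1 library covered under 10% in 33. The lowest library was replicate 2 of the 500 nuclei for 190 members, crude replicate 1 for 148 and replicate 1 of the 500 nuclei for 118. It was H2AX-GFP replicate 1 for 2.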

How the data were processed

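The authors deposited a list of called regions for each of 10 libraries, with a score per region. The definition of that score, the aligner and the peak caller with its parameters were not given in the sources used here. Per the submitters' processing notes the build was TAIR10. The other 4 of 14 samples (genomic DNA, maize and a further seedling sample) were not analysed here. Regions that touched or overlapped were merged, and covered bases per library were counted in each merged region. Genes came from the RefSeq table of TAIR10.1, whose gene positions were used on the TAIR10 regions. It holds no strand or exons, so gene starts, exons, introns and untranslated regions were not told apart, and without a genome sequence in use the planned motif shares were not computed.

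The members and lists were chosen with earlier results of these data known. Of the list symbols, 1 matched no gene. The rule for named genes took, per list, up to 4 genes by the median score rank of their member, plus the genes at the 8 widest members, at the 8 of highest rank and the 4 members without a gene within 1000 bp with the most covered bases.

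Covered bases of the 8 seedling libraries were tested by limma 3.58.1 under R 4.3.3 (lmFit, then eBayes with its trend and robust options) over regions called in at least 2 of them. On simulated data for H2AX-GFP against 50000 sorted nuclei over 24442 regions, it recovered 79 of 100 differences of 2400 bases and 4 of 100 of 800 bases. Differences of 800 bases or less could therefore seldom be called. The simulation did not cap covered bases at the width of a region. Members had a median width of 1116 bp and an upper quartile of 1626 bp, so a difference of 2400 bases was impossible for most. Alternatives were other call thresholds, merging and distances, other scalings and filters, a block on the replicate number, and leaving out each library. Python 3.11.15 with pandas 2.3.3 and scipy 1.17.1 was used.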

Additional observations from a re-analysis of the deposited data

How the results depend on the processing

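The set of members depends on the rule. It numbered 520, and 256 when a library had to cover 50% of a region to count as called, 59 of which were members before. With the better-scoring 50% of each list it numbered 412, of which 68 overlapped a member, and with lists of equal length 420. Leaving out each library in turn gave 526 to 1163, the highest without root replicate 1, where the listed genes next to members went from 46 to 80 (46 to 80 over all libraries left out), the antenna and photosystem genes from 3 to 11, and all next genes from 683 to 1614. The genes numbered 688 to 1614 over the libraries left out and 440 with the 50% rule. The antenna and photosystem list gave 11 genes with that rule and 14 with the better-scoring regions, and the cuticle and epidermis lists went from 5 to 1 each with that rule. The share near gene ends, 40.4%, was 39.5% to 44.0% with a library left out, 44.7% with the better-scoring regions, 30.8% with a flank of 500 bp and 34% counted by bases. The limma counts of called members were 0 with a replicate block in all 3 contrasts. Without H2AX-GFP replicate 1, 7 members were called higher in that line (398 of all regions in either direction, 1.63%, 395 of them higher), a range of 0 to 7 over the libraries left out. Same-numbered libraries deviated together among the sorted, 500-nuclei and H2AX-GFP groups (correlations 0.57, 0.4 and 0.44) and not with the crude group (0.03, -0.06 and 0.04). Since not every pair of groups did, the numbers were not taken to pair libraries in the main tests. For 500 and H2AX-GFP nuclei those tests thus left deviations shared with the sorted libraries in the spread.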
